A study of Homo sapiens with 8 samples.

Results

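Glycolysis and hypoxia response genes were followed across 4 conditions of the H9 line, an established line of human embryonic stem cells (hESCs). The 38 genes were taken by symbol from a list of glycolytic enzymes, transporters and regulators and of genes known to respond to low oxygen, and each was matched to 1 Ensembl gene. They comprised 17 glycolytic enzymes, from hexokinase to lactate dehydrogenase, and 21 remaining members, among 57773 genes in the count files. All 38 passed the filter on low counts, as did 23474 genes in all. RNA-seq was available for 2 replicates of each condition. The WT cells carried an HA tag on CHD7 and were untreated. The CHD7 knockout cells were CHD7 -/- and untreated. In the HERVH knockdown cells, which had the same CHD7-HA genotype as WT, transcripts of the endogenous retrovirus family HERVH had been targeted with LNA-GapmeRs for 24 h, and in the HERVH element deleted cells a HERVH element on Chr2 had been removed. The shared treatment note of the labels also names 4-thiouridine, which no sample's own label carries. According to the methods, cells for LNA-GapmeR treatment were replated with ROCK inhibitor and lipofected, and no mock-transfected library was used here, so that transfection and knockdown cannot be told apart. The methods mention clones of the edited cells, and neither they nor the labels used here say whether the 2 replicates of a condition came from separate clones or cultures. The p-values then measure only the spread between these libraries, which may be technical.

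Glycolysis splits glucose into pyruvate in the cytosol, and lactate dehydrogenase converts pyruvate to lactate and renews the NAD+ the pathway needs. Under low oxygen the prolyl hydroxylases of the EGLN family no longer mark HIF1A for destruction, and HIF1A together with ARNT binds short DNA elements and raises transcription of glucose transporters, glycolytic enzymes and genes for blood vessel growth, pH control and mitophagy. Pluripotent stem cells in primed culture are known for high glycolytic flux even with oxygen present.

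The libraries held 14802049 to 23156445 reads counted on genes. CHD7, the targeted gene, was at 651 and 650 CPM (reads per gene as parts per 1e6 of the TMM-scaled library) in WT, 197 and 197 CPM in CHD7 knockout, 626 and 514 CPM in HERVH knockdown and 711 and 691 CPM in HERVH element deleted libraries. All 6 pluripotency markers examined, POU5F1, SOX2, NANOG, LIN28A, DNMT3B and TDGF1, had at least 884 counts in every library. Of 9 markers of other cell types, 6 failed the filter on low counts, and COL1A1 made up nearly all of the summed level of the list, which came to 70.2 and 86.3 CPM in WT, 122 and 125 CPM in CHD7 knockout, 97.7 and 273 CPM in HERVH knockdown and 58.7 and 60.2 CPM in HERVH element deleted libraries. Without COL1A1, that sum stayed between 2.72 and 5.17 CPM, and between 1 and 3 of these markers were at 0 in each library. HERVH knockdown replicate 2 stood apart from its partner. Across 10904 well expressed genes of these 2 libraries the difference between replicates rose with exonic GC content (Spearman 0.738, with GC content shared by neighbouring and overlapping genes). Over the 38 genes the correlation in HERVH knockdown was 0.572. The trend was not confined to these libraries: over the 10904 genes it was 0.469 in WT, 0.388 in HERVH element deleted and -0.148 in CHD7 knockout cells. Between replicates, log2 CPM had a median SD of 0.246 in HERVH knockdown against 0.118 in WT, 0.103 in CHD7 knockout and 0.0757 in HERVH element deleted cells.

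The core of the element bound by HIF is ACGTG or GCGTG. These letters and their reverse complements CACGT and CACGC were searched on both strands, overlapping matches included, in 300-base promoter windows from RefSeq on GRCh38.p14, each with the start of the gene near its 3′ end. A window was matched for 33 of the 38 genes, taking the first listed for each gene. Of the 33, 24 (72.7%) held at least 1 match, against 17012 of 35116 windows (48.4%) in the whole set, where every window was counted. The share was 12 of 17 (70.6%) for the glycolytic enzymes and 12 of 16 (75.0%) for the remaining members. LDHA and BNIP3 had 6 matches each, ALDOC 5 and PGK1 4, while HK1, PFKM, PFKP, TPI1, PGAM1, SLC16A3, PDK1, EGLN3 and P4HA2 had 0 in these windows. A match is a description of letters and not of binding, and the base composition of the windows was not compared. The members were listed for glycolysis or a known response to low oxygen, so the share is no independent evidence of HIF control. The windows of ADM and PDK3, which passed the test in the comparisons given later, are shown with the matched letters in capitals. ADM lies on the plus strand with its window at chr11:10304823-10305122 and 1 match, and PDK3 on the plus strand with its window at chrX:24465036-24465335 and 2 matches.
ADM: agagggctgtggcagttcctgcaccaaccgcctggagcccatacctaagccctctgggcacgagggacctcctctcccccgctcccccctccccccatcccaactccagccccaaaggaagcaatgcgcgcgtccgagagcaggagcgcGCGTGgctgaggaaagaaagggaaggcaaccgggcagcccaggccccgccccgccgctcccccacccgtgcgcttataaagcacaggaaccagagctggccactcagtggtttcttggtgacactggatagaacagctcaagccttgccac
PDK3: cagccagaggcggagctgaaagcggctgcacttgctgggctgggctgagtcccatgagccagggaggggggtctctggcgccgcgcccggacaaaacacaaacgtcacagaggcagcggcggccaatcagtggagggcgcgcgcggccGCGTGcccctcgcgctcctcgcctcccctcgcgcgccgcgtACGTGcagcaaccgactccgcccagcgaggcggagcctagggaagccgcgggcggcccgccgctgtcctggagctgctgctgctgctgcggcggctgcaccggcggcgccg

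In WT cells several of the glycolytic enzymes were among the most abundant transcripts. To compare genes, CPM was divided by the length of the Ensembl canonical transcript, and 21628 tested genes could be ranked in this way. GAPDH, the dehydrogenase in the middle of the pathway, was at 1193 ± 37.97 CPM per kb (SD, n = 2) and ranked 11, ENO1, the main enolase, was at 891 ± 63.5 CPM per kb (SD, n = 2) and ranked 23, and LDHB, the B subunit of lactate dehydrogenase, was at 689 ± 52.8 CPM per kb (SD, n = 2) and ranked 44. Other enzymes ranked lower, among them HK2 at 1747 and ALDOC at 4287, and the transporter SLC2A3 ranked 160. The lowest members were NDRG1, a stress-responsive gene, and CA9, a carbonic anhydrase of the cell surface that is widely used as a hypoxia marker. CA9 was at 0.647 and 0.468 CPM in the WT libraries, and over all 8 libraries it stayed between 0.323 and 0.812 CPM. The plot of WT levels shows that neighbouring genes in this order often overlapped between replicates, as GPI and PGK1 or PKM and SLC2A3 did.

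**Figure D1:**
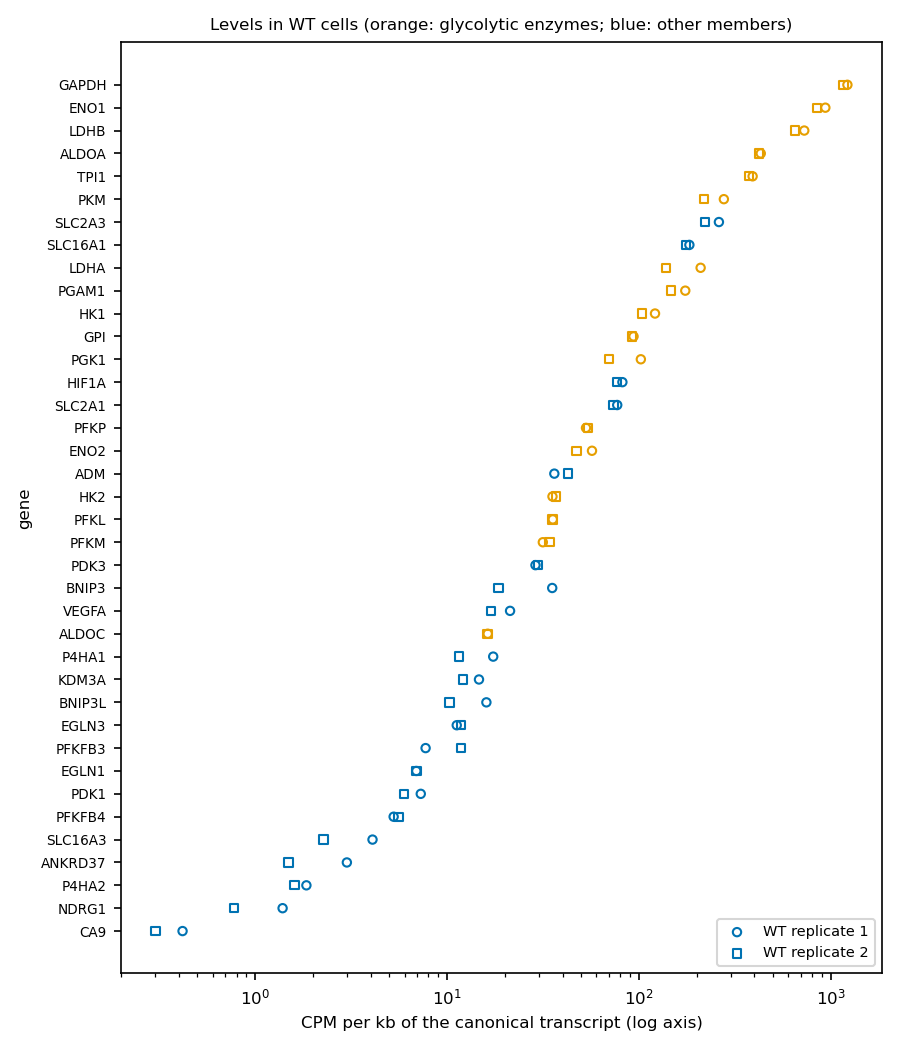
Level of each of the 38 genes in the 2 WT libraries, in CPM per kb of the canonical transcript on a log axis, with glycolytic enzymes in orange and the other members in blue. GAPDH, ENO1 and LDHB lead, and CA9 and NDRG1 are lowest; circles and squares mark the replicates, which lie farthest apart for genes such as ANKRD37, BNIP3, NDRG1 and SLC16A3.

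Where several genes encode one step, a single isozyme often provided most of the RNA per kb in WT cells. ALDOA made up 96.3% ± 0.0413 (SD, n = 2) of ALDOA and ALDOC, ENO1 94.5% ± 0.308 (SD, n = 2) of ENO1 and ENO2, LDHB 80.1% ± 3.45 (SD, n = 2) of LDHA and LDHB, and HK1 75.6% ± 2.60 (SD, n = 2) of HK1 and HK2. The phosphofructokinases were mixed, with PFKP at 43.9% ± 0.274 (SD, n = 2), PFKL at 29.1% ± 0.703 (SD, n = 2) and PFKM at 27.0% ± 0.976 (SD, n = 2). Among the glucose transporters, SLC2A3 (GLUT3) held 76.1% ± 1.58 (SD, n = 2) in WT, 74.7% ± 2.98 (SD, n = 2) in CHD7 knockout and 75.2% ± 0.603 (SD, n = 2) in HERVH element deleted cells. In HERVH knockdown cells the share of SLC2A3 was 68.4% ± 1.06 (SD, n = 2), below every library of the other conditions, and that of SLC2A1 (GLUT1) was correspondingly above them. This share was not tested.

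The first comparison addressed loss of CHD7, a chromatin remodeler. ADM, which encodes the secreted vasodilator peptide adrenomedullin, fell in CHD7 knockout cells and was the only one of the 38 genes that passed the test. ADM lies at chr11:10326620-10328944 (GRCh37, plus strand), and no other annotated gene overlaps it. It was at 54.0 and 63.8 CPM in WT libraries, 21.2 and 16.6 CPM in CHD7 knockout, 86.7 and 172 CPM in HERVH knockdown, and 54.7 and 52.6 CPM in HERVH element deleted libraries. Both CHD7 knockout libraries thus lay below all the others and both HERVH knockdown libraries above all the others. On the log2 scale its change in CHD7 knockout cells came to -1.64 (SE 0.26, FDR = 0.00546; edgeR's quasi-likelihood test, Benjamini-Hochberg adjusted over all genes tested). As bulk RNA was measured, fewer cells expressing a gene and less RNA per cell cannot be told apart. At an FDR below 0.05, 1 of the 38 members was lower and 0 were higher, where 0.613% of all genes tested were lower, 1.19% higher and 1.81% called in either direction. By the study's stricter thresholds (FDR below 0.01, 2-fold or more), ADM was a DEG, as were 0.571% of all genes tested. The FDR of ADM was 0.072 without WT replicate 2, 0.0517 without CHD7 knockout replicate 1 and 0.109 without CHD7 knockout replicate 2, each with a log2 fold change between -1.82 and -1.45, and ADM was not a DEG when any 1 of the 4 WT and CHD7 knockout libraries was left out. The 20 tested genes closest to ADM, 10 on each side, showed a median of -0.08 in the same comparison.

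**Figure D2:**
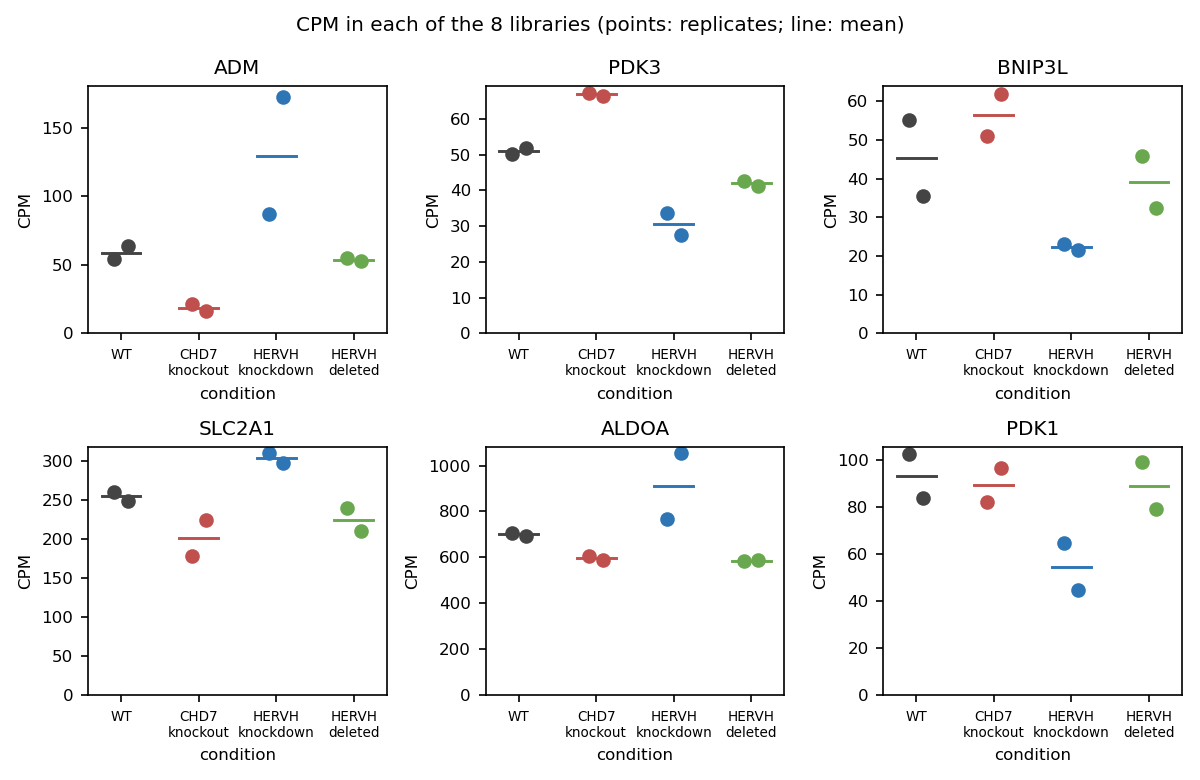
CPM of 6 genes in each of the 8 libraries, with replicates as points and the mean as a line; all axes start at 0. ADM is lowest in both CHD7 knockout libraries and highest in both HERVH knockdown libraries, while PDK3 and BNIP3L are lowest in the HERVH knockdown libraries.

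The glycolytic enzymes differed little between CHD7 knockout and WT cells. None of the 17 was called by edgeR, 0 had an unadjusted p below 0.05, and DESeq2 called 0. Their log2 fold changes ran from -0.27 (PGAM1, a phosphoglycerate mutase) to 0.24 (PFKM), with a median of -0.01, the value also found over all genes tested. For all 17 the 95% interval of the fold change lay within a 2-fold change in either direction, as it did for 11762 of the 23474 genes tested. GAPDH, for example, was at 1567 and 1498 CPM in WT and 1493 and 1453 CPM in CHD7 knockout libraries, with an interval of -0.34 to 0.22 on the log2 scale. The remaining members had a median of -0.13 and ran from the value of ADM to 0.39 for PDK3. No test was made of the difference between the 2 groups of genes. Their medians turned to 0.15 and 0.08 without WT replicate 1.

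Both glucose transporters were below their WT values in CHD7 knockout cells without passing the test. SLC2A3 was at 999 and 845 CPM in WT and 665 and 672 CPM in CHD7 knockout libraries, which gave -0.46 on the log2 scale (SE 0.14, FDR = 0.142 by edgeR), and it passed with the correction for GC content (FDR = 0.0236) and with only the 4 libraries compared (FDR = 0.0165). SLC2A1 was at 261 and 249 CPM in WT and 178 and 224 CPM in CHD7 knockout libraries, which gave -0.34 with an FDR of 0.427 by edgeR. In both cases the CHD7 knockout libraries lay below both WT libraries. PDK3, a kinase that inhibits pyruvate dehydrogenase, was at 50.3 and 51.8 CPM in WT and 67.2 and 66.5 CPM in CHD7 knockout libraries. Its log2 fold change was 0.39, with an FDR of 0.382 by edgeR. EGLN1, the main oxygen sensor of the pathway, is the member on the long arm of chromosome 1, where the median log2 fold change in CHD7 knockout cells was 0.53 over 1043 genes. EGLN1 itself was at 30.0 and 30.0 CPM in WT and 26.2 and 27.7 CPM in CHD7 knockout libraries (log2 fold change -0.16), while its 20 closest tested genes had a median of 0.25.

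The second comparison addressed the knockdown of HERVH transcripts, which by the paper's measurements lowered their level only in part. In HERVH knockdown cells ADM rose, and PDK3 and BNIP3L fell. ADM was higher than in WT by 1.14 on the log2 scale (SE 0.26, FDR = 0.0377 by edgeR), and its level in replicate 2 was about that of replicate 1 doubled, with 0.56 and 1.55 as the log2 changes of the 2 replicates against the WT mean. PDK3, at chrX:24483361-24568583 (GRCh37, plus strand), was at 33.8 and 27.6 CPM in HERVH knockdown libraries, below all the other libraries, and had a log2 fold change of -0.73 (SE 0.17, FDR = 0.0399 by edgeR). BNIP3L, a mitophagy receptor of the outer mitochondrial membrane at chr8:26240570-26363152 (GRCh37, plus strand), was at 55.3 and 35.5 CPM in WT, 51.0 and 62.0 CPM in CHD7 knockout, 23.2 and 21.6 CPM in HERVH knockdown, and 45.9 and 32.4 CPM in HERVH element deleted libraries. Its HERVH knockdown libraries were again below all the others, with a log2 fold change of -1.02 (SE 0.24, FDR = 0.0409 by edgeR). PNMA2 overlaps BNIP3L on the opposite strand. The libraries were strand-specific according to the methods, but the strand setting of the counting is not given in the sources used here. Reads of the pair may therefore not be separated.

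In this comparison 0.618% of all genes tested rose and 1.53% fell at an FDR below 0.05, against 1 and 2 of the 38 members, and 2.15% were called in either direction. No member was a DEG by edgeR, where 0.217% of all genes tested were. By DESeq2 2 members were DEGs, as were 343 of the 23474 genes tested. By edgeR 8 of the 38 members had an unadjusted p below 0.05, as had 4461 of the 23474 genes. With only the 4 libraries of the comparison in the fit, the FDR was 0.126 for ADM, 0.206 for PDK3 and 0.128 for BNIP3L. Without WT replicate 1 they were 0.377, 0.319 and 0.515, and without WT replicate 2 they were 0.0961 for ADM and 0.137 for PDK3. The log2 fold change of ADM ranged from 0.55 without HERVH knockdown replicate 2 to 1.50 without replicate 1, and that of BNIP3L was -0.66 without WT replicate 1. Exonic GC content was 59.0% in ADM, 40.9% in PDK3 and 39.1% in BNIP3L. With a correction for GC content the log2 fold changes were 0.96, -0.66 and -0.89, with FDRs of 0.0012, 0.0049 and 0.0073 by edgeR. COL1A1 was at 83.6 and 67.5 CPM in WT and 93.6 and 269 CPM in HERVH knockdown libraries (log2 fold change 1.26, FDR = 0.0653 by edgeR). Most of its rise thus lay in HERVH knockdown replicate 2, and its part in these results was not tested. The 20 tested genes closest to each had median log2 fold changes of -0.13 for ADM, -0.04 for PDK3 and -0.12 for BNIP3L.

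The glycolytic enzymes and the remaining members had different medians in HERVH knockdown cells. None of the 17 enzymes was called by edgeR, and DESeq2 called 0. By edgeR 3 of the 17 had an unadjusted p below 0.05, as had 4461 of the 23474 genes tested. With the correction for GC content ENO2 was called. Their median log2 fold change was -0.10, with 10 of 17 below WT, and it was -0.20 in replicate 1 and 0.06 in replicate 2. The remaining members had a median of -0.31, with 18 of 21 below WT, and -0.40 and -0.19 in the 2 replicates. Over all genes tested the median was 0.04, with 11053 of 23474 below WT. The enzymes had a median exonic GC content of 54.2%, the remaining members 46.5% and all genes tested 47.6%, and the part of GC content in the gap between the groups was not tested. For all 17 enzymes the 95% interval lay within a 2-fold change, and for 11 of the 21 remaining members, as for 10510 of the 23474 genes tested. The lowest members, such as CA9, are among the remaining members, and the part of abundance in this contrast was not tested. Without WT replicate 1 the median of the remaining members was -0.14.

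Single enzymes lay above or below WT in HERVH knockdown cells without passing the test. ALDOA, the main aldolase, was at 707 and 695 CPM in WT and 766 and 1055 CPM in HERVH knockdown libraries (log2 fold change 0.38, FDR = 0.208 by edgeR). ENO2, the neuronal enolase, was at 131 and 109 CPM in WT and 69.04 and 98.9 CPM in HERVH knockdown libraries (log2 fold change -0.51, FDR = 0.159 by edgeR). ENO2 passed with the correction for GC content (log2 fold change -0.65, FDR = 0.00895) and without HERVH knockdown replicate 2 (log2 fold change -0.80, FDR = 0.00239). PGK1, one of the ATP-producing steps, was at 492 and 335 CPM in WT and 288 and 327 CPM in HERVH knockdown libraries (log2 fold change -0.43, FDR = 0.231 by edgeR). The HERVH knockdown libraries of ALDOA lay above both WT libraries, and those of ENO2 and PGK1 lay below both.

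Among the regulators of flux, PDK1, a second inhibitor of pyruvate dehydrogenase, was at 103 and 83.8 CPM in WT, 82.4 and 96.9 CPM in CHD7 knockout, 64.7 and 44.8 CPM in HERVH knockdown, and 99.2 and 79.1 CPM in HERVH element deleted libraries. The HERVH knockdown libraries were the lowest, and the log2 fold change of -0.77 (SE 0.20, FDR = 0.0663 by edgeR) missed the threshold, while DESeq2 called it (FDR = 0.0214), as did edgeR with a replicate block (FDR = 0.0408) and with the correction for GC content (FDR = 0.0065). PDK1-AS1 overlaps PDK1 on the opposite strand, with the same limit as for BNIP3L. That limit also holds for other members with an overlapping gene on the opposite strand, among them ALDOC, SLC16A3, VEGFA, HIF1A and P4HA1. ATP7A overlaps PGK1 on the same strand. PFKFB3, which makes the allosteric activator of phosphofructokinase, was at 34.6 and 53.1 CPM in WT and 49.0 and 75.0 CPM in HERVH knockdown libraries, so that the groups overlapped (log2 fold change 0.50, FDR = 0.271 by edgeR). HIF1A was at 323 and 304 CPM in WT and 327 and 194 CPM in HERVH knockdown libraries, and VEGFA, the vessel growth factor, at 76.8 and 61.3 CPM in WT and 37.6 and 71.6 CPM in HERVH knockdown libraries. In both genes the 2 HERVH knockdown replicates lay farther apart than the WT replicates did. RNA of HIF1A does not report its protein, which is where oxygen acts.

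**Figure D3:**
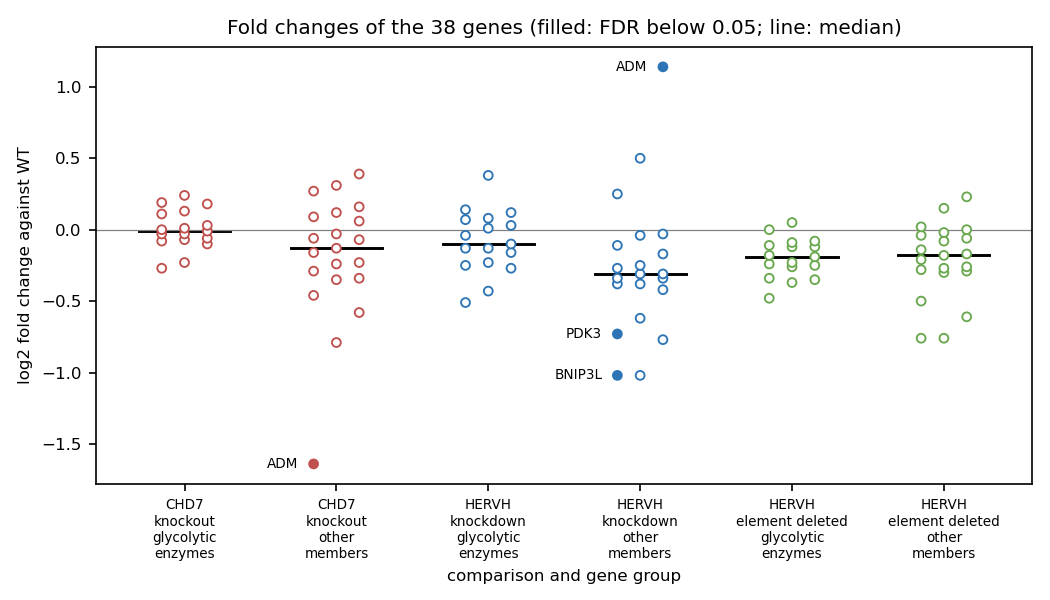
Log2 fold change of each of the 38 genes against WT in the 3 conditions, split into 17 glycolytic enzymes and 21 other members; filled points passed an FDR of 0.05 and lines are medians. The enzymes lie between -0.51 and 0.38 in all 3 comparisons, and the calls, ADM in CHD7 knockout and ADM, PDK3 and BNIP3L in HERVH knockdown, are all among the other members.

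The third comparison addressed the deletion of a single HERVH element. No member was called in HERVH element deleted cells by edgeR or by DESeq2, where 0.0724% of all genes tested were called by edgeR. An unadjusted p below 0.05 by edgeR was found for 617 of the 23474 genes tested, among them 2 members. Those were ALDOC, the minor aldolase, at 26.2 and 26.1 CPM in WT and 18.7 and 18.7 CPM in HERVH element deleted libraries (log2 fold change -0.48, 95% interval -0.94 to -0.03), and SLC16A3, a lactate exporter, at 10.6 and 5.89 CPM in WT and 6.20 and 3.51 CPM in HERVH element deleted libraries (log2 fold change -0.76, 95% interval -1.50 to -0.01). Both had an FDR of 1 by edgeR. The median was -0.19 for the glycolytic enzymes, with 16 of 17 below WT. For the remaining members it was -0.18, with 17 of 21 below WT. Over all genes tested it was -0.02, with 12467 of 23474 below WT. Without WT replicate 1 the medians of the enzymes and of the remaining members were -0.08 and -0.05. For all 17 enzymes the 95% interval again lay within a 2-fold change, and for 16 of the 21 remaining members, as for 13060 of the 23474 genes tested. ADM had a log2 fold change of -0.14 with a 95% interval of -0.68 to 0.41.

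**Figure D4:**
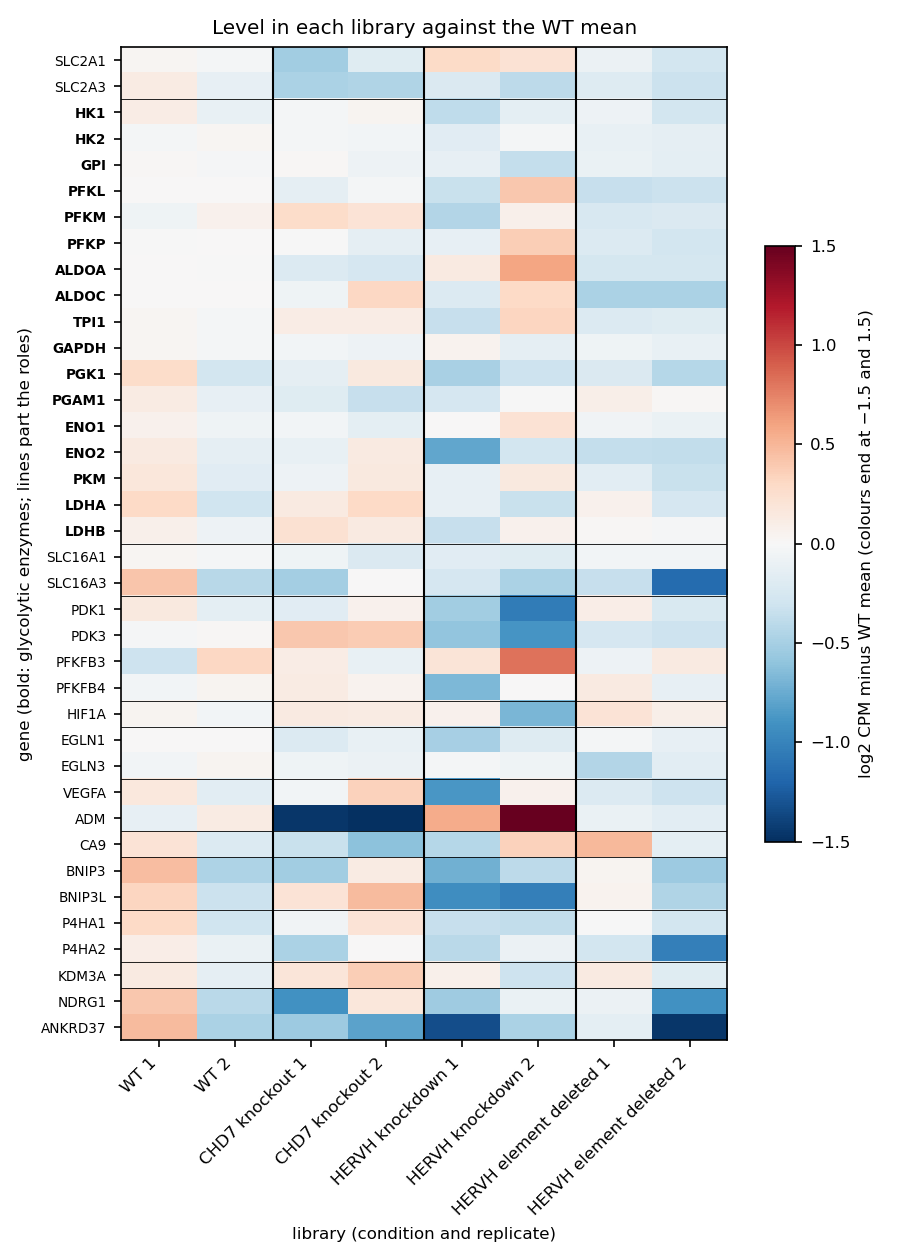
Log2 CPM of each of the 38 genes in each of the 8 libraries minus the mean of the 2 WT libraries, grouped by role, with glycolytic enzymes in bold and colours that end at -1.5 and 1.5. The row of ADM holds the strongest colours, blue in CHD7 knockout and red in HERVH knockdown, and rows such as BNIP3, NDRG1 and ANKRD37 differ between replicates of the same condition.

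Direct tests between the conditions gave the differences themselves. Between HERVH knockdown and CHD7 knockout cells, 6 of the 38 members passed an FDR of 0.05, where 9.44% of all genes tested did. ADM was higher in HERVH knockdown cells by 2.77 on the log2 scale (SE 0.27, FDR = 7.07e-05 by edgeR). SLC2A1, at 311 and 298 CPM in HERVH knockdown libraries, was higher by 0.60 (FDR = 0.0283 by edgeR) and ALDOA by 0.61 (FDR = 0.0283 by edgeR). PDK3, PDK1 and BNIP3L were lower in HERVH knockdown than in CHD7 knockout cells, with log2 fold changes of -1.12 (FDR = 0.00148), -0.71 (FDR = 0.0425) and -1.33 (FDR = 0.00409) by edgeR. ALDOA was the only one of the 17 glycolytic enzymes among the 6. The number of members that passed changed with the library left out. The calls over all genes in those fits are not given here, so that change cannot be read as particular to the members.

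Against HERVH element deleted cells the calls were fewer. In CHD7 knockout cells 2 of 38 members passed, where 2.66% of all genes tested did, with ADM lower (log2 fold change -1.50, FDR = 0.00637) and PDK3 higher (log2 fold change 0.67, FDR = 0.0486) by edgeR. In HERVH knockdown cells 1 of 38 passed, where 1.33% of all genes tested did, and this was again ADM (log2 fold change 1.27, FDR = 0.0306 by edgeR). It was not called without HERVH element deleted replicate 1 or without replicate 2, and neither was any other member. COL1A1 also differed between these 2 conditions (log2 fold change 1.72, FDR = 0.0256 by edgeR), and its part in the result for ADM was not tested.

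Several hypoxia response genes differed as much between replicates of a condition as between conditions. BNIP3, a mitophagy receptor and relative of BNIP3L, was at 54.4 and 28.6 CPM in the WT libraries, 27.5 and 42.8 CPM in CHD7 knockout, 23.9 and 30.2 CPM in HERVH knockdown, and 40.4 and 27.1 CPM in HERVH element deleted libraries. NDRG1 was at 4.20 and 2.34 CPM in WT, 1.62 and 3.55 CPM in CHD7 knockout, 2.14 and 2.91 CPM in HERVH knockdown, and 2.95 and 1.62 CPM in HERVH element deleted libraries. LDHA, the A subunit of lactate dehydrogenase, was at 470 and 310 CPM in WT, 419 and 471 CPM in CHD7 knockout, 352 and 303 CPM in HERVH knockdown, and 400.0 and 322 CPM in HERVH element deleted libraries. In each of these genes replicate 1 was the higher in WT and HERVH element deleted cells, and replicate 2 was the higher in CHD7 knockout cells. The same held for P4HA1, which encodes a collagen prolyl hydroxylase subunit (47.7 and 31.5 CPM in the WT libraries), for PGK1 and for BNIP3L.

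Counted over all members, replicate 1 was above replicate 2 in 29 of 38 in WT (76.3%, against 47.7% of all genes tested) and in 30 of 38 in HERVH element deleted cells (78.9%, against 51.1%), while in CHD7 knockout cells replicate 2 was the higher in 20 of 38 (52.6%, against 51.5%). All 3 held for 16 of 38 members (42.1%), 5 of 17 glycolytic enzymes and 11 of 21 remaining members, and for 17.1% of all genes tested. With the correction for GC content it was 19 of 38, with 9 of 17 enzymes and 10 of 21 remaining members, and 16.7% of all genes tested. In HERVH knockdown cells replicate 1 was above replicate 2 in 14 of 38 members and in 11123 of 23474 genes tested. The directions were chosen after the values were seen, and genes of a pathway are not independent of each other, so the counts are a description. PFKFB3 ran the other way in WT cells, as its CPM values show, and ANKRD37, a low-abundance HIF target, was at 2.35 and 1.17 CPM in WT and 1.50 and 0.540 CPM in HERVH element deleted libraries, but 1.11 and 0.914 CPM in CHD7 knockout and 0.602 and 1.17 CPM in HERVH knockdown libraries. The log2 fold change of BNIP3 in CHD7 knockout cells had a 95% interval of -0.88 to 0.40.

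**Figure D5:**
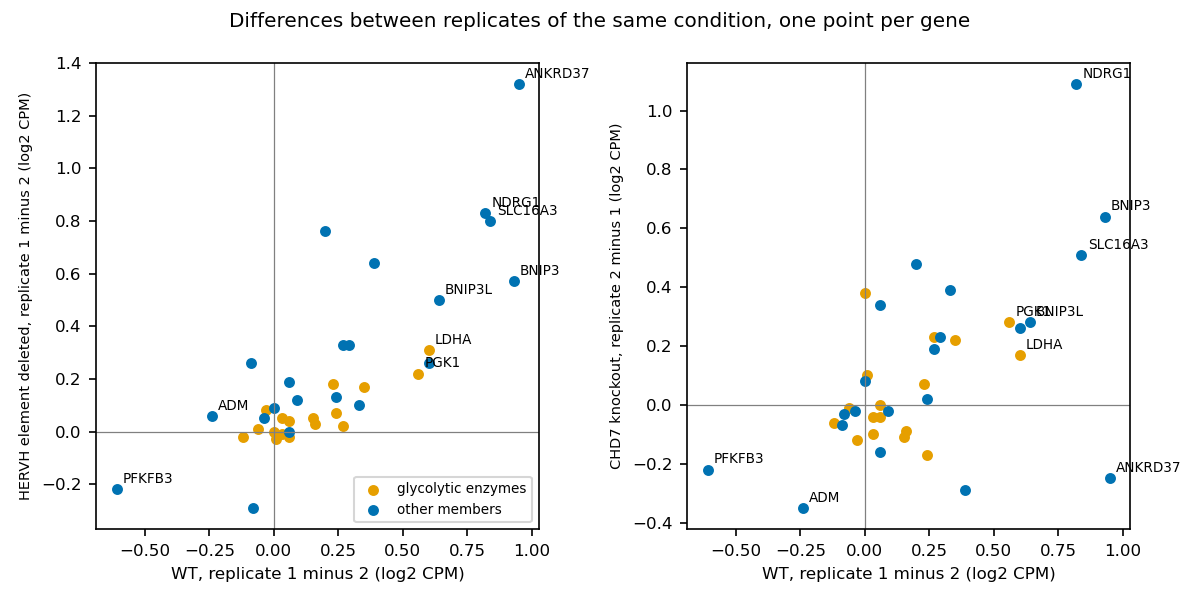
Differences in log2 CPM between the 2 replicates of a condition for the 38 genes, with WT on the x axis and HERVH element deleted (left) or CHD7 knockout cells (right) on the y axis; orange marks glycolytic enzymes and blue the other members. BNIP3, NDRG1 and SLC16A3 lie at the upper right of both panels, and PFKFB3 lies at the lower left.

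Reads of several members can be shared with near-identical pseudogenes. The annotation held 155 genes named as a member followed by P and a number, of which 64 belonged to GAPDH and 42 to BNIP3. The summed counts of the BNIP3 copies reached 54.2% of the BNIP3 counts in 1 library, so its level is uncertain. Those of PGAM1 reached 6.35% and those of GAPDH 2.76%.

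Of 64 further genes of glycolysis and the HIF pathway that were not members, 56 were tested. In CHD7 knockout cells 3 of 56 rose and 0 fell by edgeR, where 1.19% and 0.613% of all genes tested did. They were PFKFB2 (log2 fold change 0.85, FDR = 0.0156), a relative of PFKFB3, ARNT (log2 fold change 0.77, FDR = 0.0354), the partner of HIF1A, and STC1 (log2 fold change 0.84, FDR = 0.0319), a secreted stanniocalcin. PFKFB2 and ARNT lie on the long arm of chromosome 1, and the 20 tested genes closest to each centred on 0.73 and 0.62, whereas the median around STC1 was -0.02. In HERVH knockdown cells 6 of 56 fell, where 1.53% of all genes tested did, and BHLHE40, a transcriptional repressor, rose by 1.63 on the log2 scale (FDR = 0.0136 by edgeR). PPFIA4 (log2 fold change -1.49), TMEM45A (log2 fold change -1.20) and CA12, a carbonic anhydrase related to CA9 (log2 fold change -1.14), had the largest falls among the genes called. In HERVH element deleted cells 0 of 56 were called by edgeR, where 0.0724% of all genes tested were. Of the 56, 3 had an unadjusted p below 0.05 by edgeR, as had 617 of the 23474 genes tested.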

How the data were processed

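RNA-seq libraries of H9 cells were strand-specific and depleted of rRNA, according to the methods. The authors aligned the reads against hg19 (STAR, Ensembl genes) and ran HTSeq-count, and what they deposited are raw counts. Tool versions and the strand setting are not given in the sources used here. Groups came from the sample labels. Symbols, positions and GC content came from GENCODE on GRCh37, which gave GC content for 96.9% of tested genes.

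Counts were scaled by TMM, filtered with filterByExpr and tested in R 4.3.3 with edgeR 4.0.16 (quasi-likelihood, 1 joint fit, group as factor, 8 libraries, 4 residual degrees of freedom, Benjamini-Hochberg adjustment over 23474 genes). CPM uses TMM scaling, and log2 CPM a prior count of 2. Per library, 3 counts equalled 0.128 to 0.218 CPM, counting error only. Alternatives were RLE scaling, DESeq2 1.42.0, other filters, 4-library fits, a replicate block, a GC correction (loess, span 0.3) and each library left out. On data simulated for CHD7 knockout against WT, 84 of 100 genes with 2-fold and 100 of 100 with 4-fold changes were recovered, with 6 false calls among 22447 genes. The simulation had 1 fixed dispersion for all genes and no GC or replicate trend, and only genes above a set level were changed. It therefore checks the code and does not give the power of the tests on the real libraries. Figures were drawn with Python 3.11.15 and matplotlib 3.10.9.

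The members, the gene lists and the tests were chosen with earlier results of these data known. All members are in the figures, and SLC16A1, PFKFB4 and KDM3A are not described singly in the text. Of the further pathway genes, at most the 5 with the largest absolute log2 fold change among those called in a comparison are named. One result that this rule covers is not reported here.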

Additional observations from a re-analysis of the deposited data

How the results depend on the processing

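None of the 4 calls against WT among the members was kept under every alternative, and no value turned its direction where it had been called. In CHD7 knockout cells 1 member fell in the main result, 2 did with only the 4 libraries compared, with the GC correction and with the GC correction and the replicate block together, and 0 to 1 did with 1 library left out, when DEGs numbered 0. Over all genes tested in CHD7 knockout cells, 144 fell in the main result and 510 with only the 4 libraries compared. With the GC correction 373 fell, and 337 with the block added. The median of the glycolytic enzymes there was 0.07 with the GC correction and 0.08 with the block added. With 1 library left out it was -0.09 to 0.15, and that of the remaining members was -0.20 to 0.08. In HERVH knockdown cells, 26 of all genes tested rose and 31 fell with only the 4 libraries compared. With the GC correction 1240 fell, and 1185 with the block added. Of the members, 0 rose and 0 fell with only the 4 libraries compared, and 4 fell with the GC correction, with or without the block. With 1 library left out, 0 to 3 rose and 0 to 6 fell, and 0 to 3 were DEGs. In CHD7 knockout and HERVH knockdown cells alike, the calls over all genes tested also changed with the library left out. The ranges for 1 library left out therefore cannot be read as particular to the members. In HERVH knockdown cells members that were DEGs numbered 2 with DESeq2, with all genes that had a count, and at an FDR below 0.05 with at least 2-fold. DESeq2 made 343 of all genes tested DEGs, and the fit with all genes that had a count made 506. The median of the remaining members was -0.42 to -0.14 with 1 library left out. In HERVH element deleted cells the median of the enzymes was -0.24 to -0.08.

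Between HERVH knockdown and HERVH element deleted cells, 4 members were called with DESeq2 and with all genes that had a count, 2 with the replicate block, the GC correction or both, 0 with only the 4 libraries compared, and 0 to 11 with 1 library left out. Between CHD7 knockout and HERVH element deleted cells, 1 was called with RLE scaling, 10 with only the 4 libraries compared and 0 to 1 with 1 library left out. Between HERVH knockdown and CHD7 knockout cells, 3 were called with only the 4 libraries compared, 11 with the GC correction, with or without the block, and 2 to 13 with 1 library left out. The calls over all genes under these alternatives are not given here, so these counts cannot be read as particular to the members. Why the counts differ was not tested. A library left alone in its group was assumed to vary like the other groups.

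The labels give the conditions the same replicate numbers but no shared batch. Deviations of same-numbered libraries over 10904 genes correlated at -0.277 for WT with CHD7 knockout, 0.353 with HERVH knockdown and 0.513 with HERVH element deleted cells. With the block 3 members, PDK1 being the third, fell in HERVH knockdown cells against WT in place of 2, and the other counts of members called against WT were as without it. A block with the numbers of CHD7 knockout crossed, added after seeing the data, called 447 genes higher and 267 lower against WT, where the fit without a block called 280 and 144, with 1 member lower in both. Over all genes in HERVH knockdown cells, 145 rose and 359 fell, against 3 and 1 without WT replicate 1, 1964 and 2120 without HERVH knockdown replicate 1, and 775 and 1240 with the GC correction. With 2 replicates in each group, intervals for low members such as CA9 and ANKRD37 spanned more than a 2-fold change.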
